A study of Mus musculus with 6 samples.

Results

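The D cyclins, the kinases they activate, the inhibitors of those kinases and their main substrate were examined as a group of 10 genes in BCR-ABL1+ mouse B cells with and without gamma-catenin. The members were Ccnd1, Ccnd2, Ccnd3, Cdk4, Cdk6, Cdkn1b, Cdkn2a, Cdkn2c, Cdkn2d and Rb1. They were taken by name from the 19938 genes measured by a probe set with exactly 1 gene symbol. The list was chosen with earlier results of these data known. All 10 were found. Cdkn1b had 2 such probe sets, of which the brighter on average was used, and each of the 9 other genes had 1.

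The study asks how the leukaemia depends on Jup, the gene of gamma-catenin, an adhesion protein related to beta-catenin. Both groups were donor-type (CD45.2+) GFP+ B220+ BP-1+ B cells sorted from bone marrow at day 21 after a retrovirus carrying BCR-ABL1 and GFP was introduced into whole marrow and the marrow was transplanted into lethally irradiated C57BL/6 recipients (CD45.1+). The donors of that marrow were themselves chimeras, C57BL/6 mice (CD45.1+) rebuilt with fetal liver cells that were Jup-/- (knockout, KO) or Jup+/+ (wild type, WT). Each group had 3 samples, which the labels call biological replicates, and each sample was run on 1 one-colour Affymetrix array. Both groups carried BCR-ABL1, expressed from a retrovirus and not from the Abl1 locus, and no sample lacked it. The Jup deletion was present in the donor blood cells from the fetal liver onward. The labels do not say whether a sample held cells of 1 mouse or of several. Values are log2 levels, so that a difference of 1 is a doubling, and every difference is KO minus WT.

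In early G1 phase, growth signals raise a D cyclin, which binds and activates CDK4 or CDK6. The active kinase phosphorylates the retinoblastoma protein, encoded by Rb1, and thereby frees E2F factors to start the genes of S phase. INK4 proteins (from Cdkn2a, Cdkn2c and Cdkn2d) bind CDK4 and CDK6 and keep D cyclins away, whereas p27Kip1 (from Cdkn1b) mainly inhibits cyclin E with CDK2 and also associates with D cyclin complexes. In B-cell precursors cyclin D3 is needed for the expansion of pre-B cells, cyclin D2 responds to cytokine and STAT5 signals, and CDK6 is a known dependency of BCR-ABL1+ lymphoid leukaemia. Cdkn2a, whose second product p19Arf restrains MDM2, is often lost in that disease.

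Promoters are shown for the CDK inhibitor genes among the members whose KO and WT means differed most. The Cdk4 promoter is shown because it holds repeated copies of a motif that the transcription factor MYC can bind. The RefSeq (GRCm38.p6) promoter set used here had windows for 7 of the 10 members and none for Ccnd1, Ccnd2 and Rb1. Each of the 10 windows reached from 250 bases before to 50 bases after a transcription start. Both strands were searched for 4 motifs: the E-box CACGTG, the forkhead motif TGTTTAC, the STAT motif TTCNNNGAA and the E2F motif TTTCCCGC. Capitals mark the matches, and no matches overlapped.
Cdkn1b (chr6:134920151-134920450, plus strand): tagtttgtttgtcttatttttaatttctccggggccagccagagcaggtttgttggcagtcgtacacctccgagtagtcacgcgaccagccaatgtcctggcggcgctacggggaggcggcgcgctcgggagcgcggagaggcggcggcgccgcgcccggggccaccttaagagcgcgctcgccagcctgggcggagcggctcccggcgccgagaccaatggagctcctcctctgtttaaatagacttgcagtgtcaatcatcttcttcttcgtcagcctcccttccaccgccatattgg
Cdkn2d (chr9:21291160-21291459, minus strand): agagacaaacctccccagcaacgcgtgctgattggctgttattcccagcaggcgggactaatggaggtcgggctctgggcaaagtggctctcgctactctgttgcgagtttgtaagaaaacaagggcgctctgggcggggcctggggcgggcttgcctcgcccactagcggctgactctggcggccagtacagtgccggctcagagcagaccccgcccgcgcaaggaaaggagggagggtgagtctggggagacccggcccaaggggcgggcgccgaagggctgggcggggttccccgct
Cdkn2a, upstream start (chr4:89294570-89294869, minus strand): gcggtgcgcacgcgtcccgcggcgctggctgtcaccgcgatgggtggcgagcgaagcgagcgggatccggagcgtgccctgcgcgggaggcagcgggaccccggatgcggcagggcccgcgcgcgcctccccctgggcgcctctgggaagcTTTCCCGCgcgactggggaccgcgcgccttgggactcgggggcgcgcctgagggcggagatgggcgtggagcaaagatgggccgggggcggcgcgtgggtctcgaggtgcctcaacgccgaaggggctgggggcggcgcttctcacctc
Cdkn2a, downstream start (chr4:89282143-89282442, minus strand): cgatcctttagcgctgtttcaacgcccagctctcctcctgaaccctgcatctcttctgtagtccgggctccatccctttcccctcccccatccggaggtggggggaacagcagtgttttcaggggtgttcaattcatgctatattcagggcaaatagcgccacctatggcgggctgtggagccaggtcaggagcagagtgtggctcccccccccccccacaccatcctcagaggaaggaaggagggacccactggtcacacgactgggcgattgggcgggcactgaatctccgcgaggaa
Cdk4 (chr10:127063285-127063584, plus strand): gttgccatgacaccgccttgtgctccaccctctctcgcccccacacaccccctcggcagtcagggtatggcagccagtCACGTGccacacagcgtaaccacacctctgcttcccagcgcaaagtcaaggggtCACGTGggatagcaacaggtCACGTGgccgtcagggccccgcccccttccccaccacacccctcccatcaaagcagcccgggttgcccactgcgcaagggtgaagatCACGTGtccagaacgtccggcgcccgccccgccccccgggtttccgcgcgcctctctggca

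The Cdk4 window held 4 E-boxes, while 7.15% of the 32851 promoter windows in the RefSeq table held at least 1. The E2F motif stood in the upstream Cdkn2a window, the start of the p19Arf transcript, and in 1.07% of all windows. The downstream Cdkn2a start is that of the p16Ink4a transcript. Neither the Cdkn1b nor the Cdkn2d window held any of the 4 motifs. Among the windows not printed, the Cdk6 window and 1 of the 2 Cdkn2c windows held an E-box, and 1 of the 2 Ccnd3 windows held the forkhead motif, which 3.65% of all windows held. The STAT motif was in none of the 10 windows and in 8.30% of all windows. Ccnd1, Ccnd2 and Rb1 had no window, so their promoters were not searched for any motif. These matches describe letters in a window and are not evidence of binding.

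The arrays were alike in scale, with medians of 7.53 to 7.61, and the Pearson's r of any 2 over all probe sets lay between 0.991 and 0.996 (probe sets are no independent replicates). Jup measured 7.04, 7.06 and 7.27 in KO and 8.04, 7.62 and 8.51 in WT, so the groups did not overlap. Its difference was -0.93 (limma adjusted p = 0.171), and the deleted part of Jup, and so whether the probe set lies in it, was not stated in the labels. Transcripts of early B cells were bright, with Igll1 at 13.93 to 14.02, Cd79a at 13.60 to 13.76 and Enpep, the gene of BP-1, at 12.23 to 12.63. WT replicate 2 was the only array with low Xist (6.20, against 13.03 to 13.38), so the sex of the cells was uneven between the groups. Its removal turned the sign of no member. Precision is limited by the small number of arrays.

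No member passed the test over all 21789 probe sets (limma, Benjamini-Hochberg adjusted p under 0.05), a threshold that 0.119% of probe sets passed. At an unadjusted p under 0.05, 3 of the 10 were higher in KO (Ccnd2, Cdkn1b and Cdkn2d), against 4.48% of all probe sets, and 1 was lower (Cdkn2a), against 4.73%. All 3 KO arrays lay above all 3 WT arrays for 4 members (those 3 and Rb1), against 5.94% of all probe sets. The reverse held for 0 members, against 8.08% of all probe sets. Because the members were chosen with earlier results of these data known, these shares are a description and not a test. The members' median difference was -0.06 and that of all probe sets -0.02. In size, regardless of sign, the members' median was 0.15 and that of all probe sets 0.08. In sorted bulk samples such as these, fewer cells of a type and less RNA per cell cannot be told apart.

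**Figure D1:**
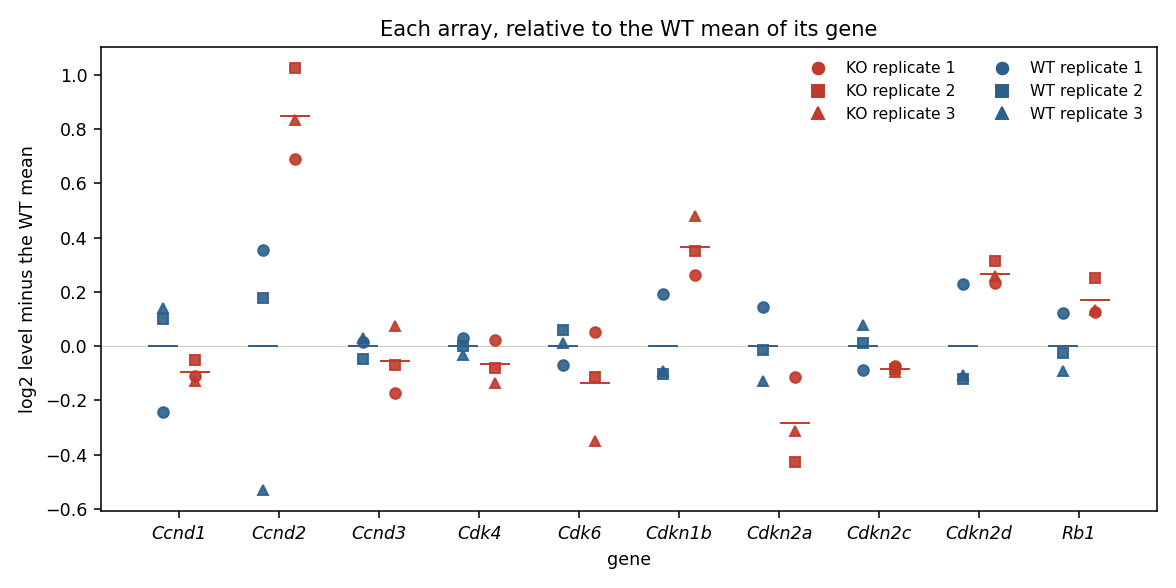
Log2 level of each member in each array, after subtraction of the gene's WT mean (vertical axis), for the 10 genes (horizontal axis). Red marks are KO, blue marks WT, the shape gives the replicate number, and short lines are group means. Ccnd2 shows the widest separation, with the lowest KO array 0.69 and the highest WT array 0.35 above the WT mean.

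The D cyclins gave values that differed from gene to gene. Ccnd2, which encodes cyclin D2, measured 12.35, 12.69 and 12.50 in KO replicates 1, 2 and 3 and 12.02, 11.84 and 11.13 in WT replicates 1, 2 and 3. The KO arrays were all higher than the WT arrays, and WT replicate 3 stood lowest. Means were 12.51 ± 0.17 (SD, n = 3) for KO and 11.67 ± 0.47 (SD, n = 3) for WT, which differ by 0.85 (SE 0.21). This is 1.80-fold higher in KO, with a 95% interval of 1.29 to 2.51, and ranked 297th of all probe sets by p, but it did not pass (limma adjusted p = 0.253). The WT spread was wider than the KO spread and came mostly from WT replicate 3, without which the difference was 0.58.

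Ccnd3, the gene of cyclin D3, measured 12.41, 12.52 and 12.66 in KO and 12.60, 12.54 and 12.62 in WT. The 3 WT values lay inside the KO range. Its difference was -0.06 (SE 0.09, limma adjusted p = 0.917, 95% interval -0.25 to 0.14). Without KO replicate 1 the difference was 0.0025, so it has no settled sign.

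Ccnd1, which encodes cyclin D1 and is the D cyclin least used by lymphoid cells, measured 7.36, 7.42 and 7.34 in KO and 7.22, 7.57 and 7.61 in WT. These values lie around the array medians, a range in which such processing usually compresses changes. The groups overlapped, because WT replicate 1 was the lowest array and the other WT arrays the highest. The difference was -0.10 (SE 0.11, limma adjusted p = 0.871), and it was -0.22 without WT replicate 1.

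The signed difference Ccnd2 minus Ccnd3 within an array was higher in every KO array than in every WT array. It is given relative to its WT mean, because the levels of different probe sets cannot be set against each other. Values of 0.863, 1.095 and 0.758 were found in KO and of 0.339, 0.224 and -0.563 in WT. In KO this averaged 0.905 ± 0.172 (SD, n = 3), and the SD in WT was 0.491. This is a description without a test.

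**Figure D2:**
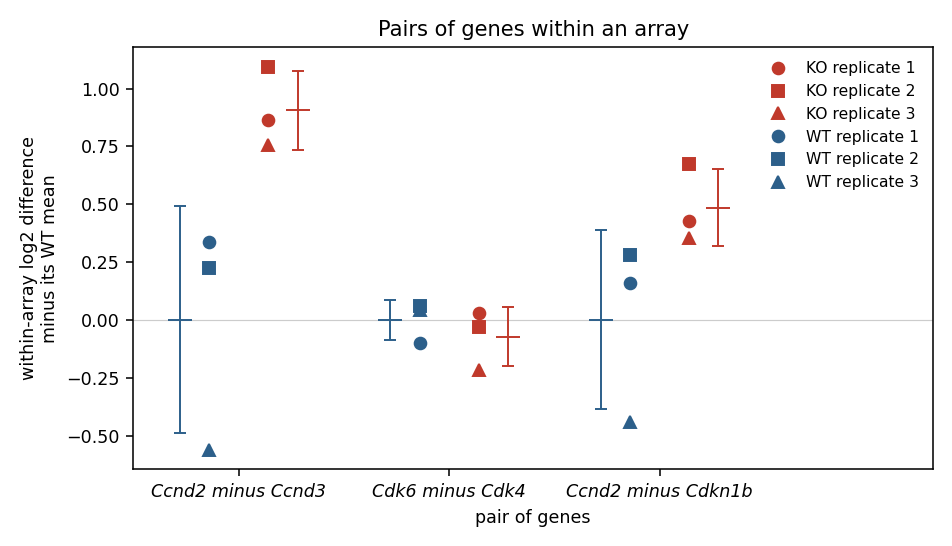
Within-array log2 difference of 3 pairs of genes (horizontal axis), relative to the WT mean of the pair (vertical axis). Points are arrays, red for KO and blue for WT, and bars beside them give the group mean and SD (n = 3). Ccnd2 minus Ccnd3 lies at 0.758 to 1.095 in KO and at or below 0.339 in WT, whereas Cdk6 minus Cdk4 overlaps between the groups.

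The kinase genes differed less. Cdk4 measured 13.24, 13.14 and 13.08 in KO and 13.25, 13.22 and 13.19 in WT. KO replicate 1 fell within the WT range and the other KO arrays just under it. The difference was -0.06 (SE 0.08, limma adjusted p = 0.878, 95% interval -0.24 to 0.11). Myc, named here because of the E-boxes printed for Cdk4, had a difference of -0.48, given with the other regulators.

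Cdk6 measured 11.43, 11.27 and 11.03 in KO and 11.31, 11.44 and 11.39 in WT. Its KO arrays were more spread than its WT arrays, with an SD of 0.20 against 0.07, and KO replicate 1 lay within the WT range. The difference was -0.14 (SE 0.11, limma adjusted p = 0.783, 95% interval -0.39 to 0.11). The signed difference Cdk6 minus Cdk4 within an array, relative to its WT mean, was 0.03, -0.03 and -0.21 in KO and -0.10, 0.06 and 0.04 in WT, so only KO replicate 3 stood outside the WT range.

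Cdkn1b, the gene of the inhibitor p27Kip1, had the second largest difference among the members. It measured 11.48, 11.57 and 11.70 in KO and 11.42, 11.12 and 11.13 in WT. The groups did not overlap, but WT replicate 1 came within 0.07 of KO replicate 1. Means were 11.59 ± 0.11 (SD, n = 3) for KO and 11.22 ± 0.17 (SD, n = 3) for WT, which differ by 0.36 (SE 0.10). This is 1.29-fold higher in KO with a 95% interval of 1.09 to 1.52, and it did not pass (limma adjusted p = 0.330). The other Cdkn1b probe set, which was dimmer, measured 8.80, 9.02 and 9.13 in KO and 8.94, 8.02 and 8.51 in WT. There the groups overlapped, again through WT replicate 1, and the difference was 0.49 (SE 0.21, limma adjusted p = 0.518). The signed difference Ccnd2 minus Cdkn1b within an array, relative to its WT mean, was 0.43, 0.67 and 0.35 in KO and 0.16, 0.28 and -0.44 in WT, so the KO arrays were the higher ones here too.

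The INK4 genes did not share a direction. Cdkn2d, which encodes p19Ink4d, measured 9.28, 9.36 and 9.30 in KO and 9.27, 8.92 and 8.94 in WT. The lowest KO array exceeded WT replicate 1 by only 0.0044, far less than the WT SD of 0.20, while the other WT arrays were lower by more than that SD. The difference was 0.27 (SE 0.11, limma adjusted p = 0.488), or 1.20-fold. It was 0.38 without WT replicate 1, and 0.21 without WT replicate 2 or WT replicate 3.

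Cdkn2a measured 8.36, 8.05 and 8.17 in KO and 8.62, 8.46 and 8.35 in WT. Its probe set is annotated with both RefSeq transcripts of the locus, so p16Ink4a and p19Arf cannot be told apart. KO replicates 2 and 3 were lower than all WT arrays and KO replicate 1 lay just above WT replicate 3. The difference was -0.28 (SE 0.11, limma adjusted p = 0.464), which is 1.22-fold lower in KO. The unadjusted p was 0.05 or more without KO replicate 2, KO replicate 3, WT replicate 1 or WT replicate 2.

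Cdkn2c, the gene of p18Ink4c, was nearly constant in KO, at 10.76, 10.75 and 10.74, and measured 10.75, 10.85 and 10.91 in WT. WT replicate 1 fell among the KO arrays and the other WT arrays were higher. The difference was -0.08 (SE 0.08, limma adjusted p = 0.823, 95% interval -0.26 to 0.09).

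Rb1, the substrate of these kinases, measured 11.60, 11.73 and 11.61 in KO and 11.60, 11.45 and 11.39 in WT. The groups were separated by 0.0044 at the nearest arrays, KO replicate 1 and WT replicate 1. The difference was 0.17 (SE 0.09, limma adjusted p = 0.615), and its 95% interval of -0.03 to 0.37 includes 0. Without WT replicate 1 it was 0.23.

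**Figure D3:**
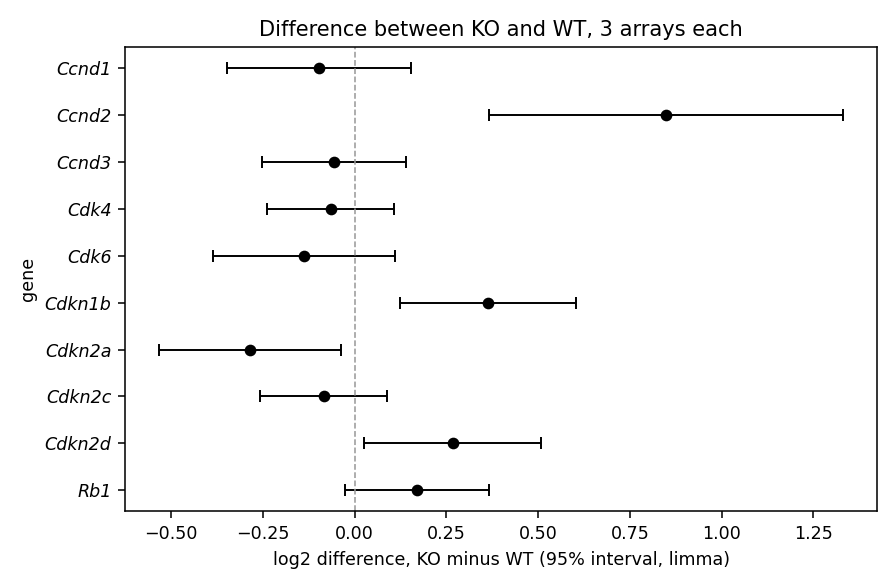
Difference in log2 level between KO and WT (horizontal axis) for each of the 10 genes (vertical axis). Points are estimates from 3 arrays a group and bars the 95% interval of limma's fit, not adjusted for the number of probe sets. The intervals of Ccnd2, Cdkn1b, Cdkn2d and Cdkn2a do not reach 0 and those of the other members include it.

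WT replicate 1 was the WT array nearest to the KO mean for 7 of the 10 members, namely Ccnd1, Ccnd2, Cdk6, Cdkn1b, Cdkn2c, Cdkn2d and Rb1. It exceeded the WT mean by 0.35 for Ccnd2, 0.19 for Cdkn1b, 0.23 for Cdkn2d and 0.12 for Rb1. For Cdkn2a and Cdk4 the same array was the farthest from the KO mean, at 0.15 and 0.03 above the WT mean, and for Ccnd3 it lay between the other WT arrays. How often this array was the nearest over all probe sets was not determined, so the count of 7 is only a description.

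Markers of other cells and stages differed between the groups as well. Of all probe sets, 4.48% were higher and 4.73% lower at an unadjusted p under 0.05 in limma, and 0.119% passed. On a list of 9 measured mature B cell genes all 9 had a higher KO mean and 4 of them an unadjusted p under 0.05. The differences ran from 0.02 for H2-Ab1 to 1.29 for Ms4a1, and Cr2, Fcer2a and Ciita lay below the array medians. As a list, the 9 genes are described next. Their mean level was 8.71 to 9.07 in KO and 8.25 to 8.59 in WT, with WT replicate 1 the highest WT array. Of 14 measured myeloid markers 12 had a higher KO mean, at a mean level of 8.49 to 8.58 in KO and 7.66 to 8.14 in WT. Over all probe sets 3 of these markers passed. Without KO replicate 2 only 2 probe sets in all passed as higher, so not all 3 kept their call there. At an unadjusted p under 0.05 in limma, 10 of the 14 markers were higher and 0 lower. All KO arrays lay above all WT arrays for 9 of these markers, against 5.94% of all probe sets. Mpo, the myeloperoxidase of neutrophil granules, led them at 9.04 to 9.38 in KO and 7.44 to 7.76 in WT, while the monocyte markers Csf1r and Cd14 lay at 5.77 to 6.70 in all arrays, below the array medians. The mean of 13 early B genes, 8 of them with a higher KO mean, was 12.09 to 12.20 in KO and 12.04 to 12.11 in WT. At an unadjusted p under 0.05, 2 of these genes were higher and 1 lower, and 0 passed. Rag2, a subunit of the recombinase that rearranges immunoglobulin genes, measured 9.96, 10.13 and 10.24 in KO and 9.65, 9.85 and 9.57 in WT without overlap (difference 0.42, limma adjusted p = 0.260). Its partner Rag1 gave 0.50 (limma adjusted p = 0.379), with KO replicate 1 inside the WT range. Enpep, the gene of the sorting marker BP-1, measured 12.54, 12.32 and 12.23 in KO and 12.61, 12.63 and 12.54 in WT, a difference of -0.23 (limma adjusted p = 0.4998) with the nearest arrays 0.0062 apart. Of 7 measured erythroid markers 3 had a higher KO mean and 1 passed, with mean levels of 8.36 to 8.39 in KO and 8.27 to 8.34 in WT. Of 10 T and NK cell markers 3 had a higher KO mean, with differences from -0.79 to 0.49. At an unadjusted p under 0.05 in limma, 1 of them was higher and 2 lower, and 0 passed. Their mean levels were 6.13 to 6.32 in KO and 6.15 to 6.43 in WT. For 11 stromal and endothelial markers, 5 with a higher KO mean, they were 7.01 to 7.09 and 6.99 to 7.24, and 1 (Sparc) passed as lower, a call lost without KO replicate 2, KO replicate 3 or WT replicate 3 (limma adjusted p = 0.114, 0.110 and 0.0627). The part of these cells or of B cell stage in the members' differences was not tested.

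The factors that D cyclin kinases act on gave few differences. Of all probe sets, 0.119% passed, and 4.48% were higher and 4.73% lower at an unadjusted p under 0.05 in limma. Of the 12 genes for pocket proteins, E2F and DP factors 0 passed over all probe sets, and 1 in each direction had an unadjusted p under 0.05. The higher was Tfdp2, a dimerisation partner of E2F, at 10.61, 10.78 and 10.76 in KO and 10.55, 10.47 and 10.46 in WT (difference 0.22, SE 0.08). The lower was E2f5, a repressive E2F that pairs with the pocket proteins p107 and p130, at 9.12, 9.08 and 9.43 in KO and 9.62, 9.45 and 9.43 in WT, where the groups overlapped only just. The list's median was -0.03.

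The next kinase step had its clearest value in cyclin E. Ccne1, which encodes cyclin E1, the partner of CDK2 and itself an E2F target, measured 10.39, 10.21 and 10.21 in KO and 10.55, 10.63 and 10.66 in WT. All KO arrays were lower, by at least 0.16. The difference was -0.34 (SE 0.08, limma adjusted p = 0.230). Of the 8 genes of that list (cyclins E and A, CDK2, CDC25A and the CDK-activating kinase) 6 had a lower KO mean, 1 had an unadjusted p under 0.05 and 0 passed, with a median of -0.08. Cdk2, at the other end of the list, gave 0.03 (SE 0.10) and has no settled sign, being at -0.050 without WT replicate 3.

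Skp2, the ubiquitin ligase subunit that marks p27Kip1 for degradation, measured 10.20, 10.17 and 10.10 in KO and 10.36, 10.38 and 10.33 in WT. The KO arrays were all lower, by at least 0.13. Its difference was -0.20 (SE 0.07, limma adjusted p = 0.438). It was the 1 gene among 8 measured ubiquitin ligase genes with an unadjusted p under 0.05, and 0 passed. The list's median was 0.05, and Fbxw7, which marks cyclin E, gave 0.12 (SE 0.10). Of the other CDK inhibitors, 2 of 3 listed were measured, and Cdkn2b, the INK4 gene beside Cdkn2a, gave -0.19 (SE 0.10) and Cdkn1c -0.08 (SE 0.09). All KO arrays were below the WT arrays for Cdkn2b, and neither passed. Both genes had levels around the array medians.

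Genes that E2F switches on at the start of S phase gave small differences. Of 22 measured E2F targets 15 had a lower and 7 a higher KO mean, all differences lay between -0.18 and 0.14, and limma gave an unadjusted p under 0.05 for 0 of them in either direction. Rrm2, a subunit of ribonucleotide reductase, had the lowest moderated t at -0.16 (SE 0.08) and Cdt1, a replication licensing factor, the highest at 0.14 (SE 0.09). Among 12 measured mitosis and proliferation genes, 10 had a lower KO mean, with differences of -0.18 to 0.07, and again 0 reached that p in either direction. They ran from the mitotic kinase gene Aurka at -0.18 (SE 0.09) to the proliferation marker Mki67 at 0.07 (SE 0.08). Both lists had a median of -0.05, against -0.02 for all probe sets, where a lower KO mean was thus also the more common direction.

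**Figure D4:**
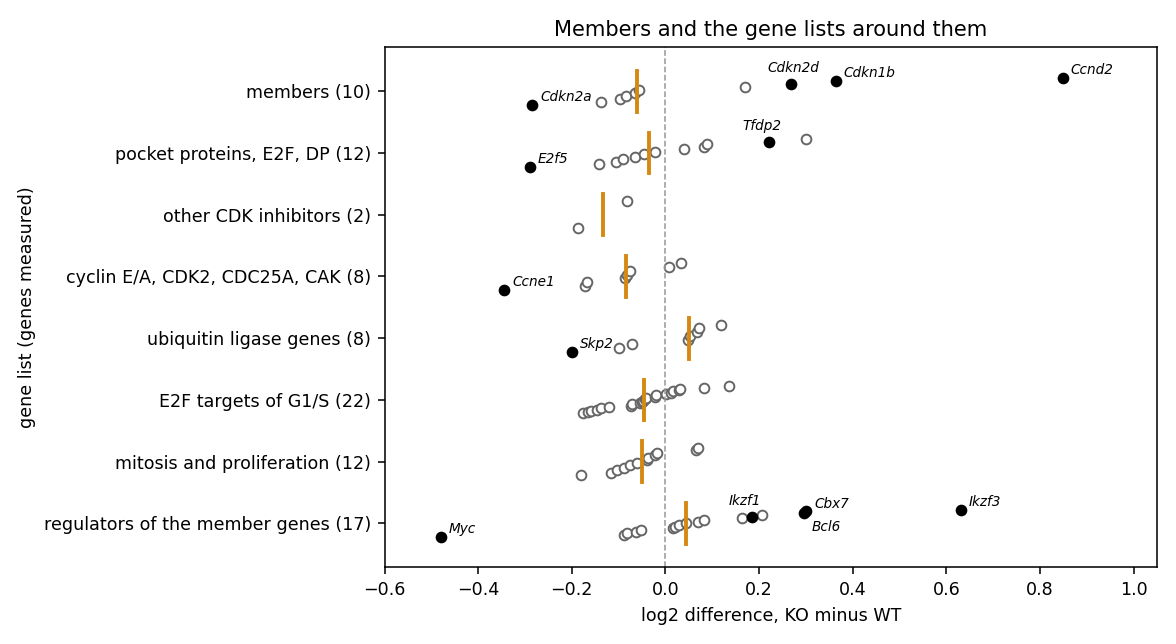
Difference in log2 level between KO and WT (horizontal axis) for the members and for 7 gene lists (vertical axis, number of genes measured in brackets). Filled and named points have an unadjusted p under 0.05 in limma, open points do not, and orange bars are list medians. Ccnd2 lies farthest from 0 at 0.85, and the E2F targets and mitosis genes stay within -0.18 to 0.14.

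Among 17 measured genes known to regulate the members, 4 lay higher and 1 lower at an unadjusted p under 0.05, and 0 passed over all probe sets, with a median of 0.04. The shares of all probe sets at that p were 4.48% higher and 4.73% lower. Myc, which promotes Ccnd2 and Cdk4 expression and opposes Cdkn1b, measured 11.91, 11.40 and 11.64 in KO and 12.33, 12.01 and 12.05 in WT. All KO arrays were lower, and the difference was -0.48 (SE 0.14, limma adjusted p = 0.346). Ikzf3, which encodes Aiolos, a restraint on pre-B cell cycling, measured 11.09, 11.75 and 11.78 in KO and 11.17, 10.91 and 10.65 in WT. KO replicate 1 fell within the WT range, and the difference was 0.63 (SE 0.20, limma adjusted p = 0.372). Its relative Ikzf1, or Ikaros, gave 0.19 (SE 0.07) without overlap.

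Cbx7, a polycomb subunit that represses Cdkn2a, measured 9.41, 9.59 and 9.76 in KO and 9.33, 9.27 and 9.27 in WT, all KO arrays being higher (difference 0.30, SE 0.10, limma adjusted p = 0.387). Bcl6, a repressor known to bind Ccnd2, gave 0.30 (SE 0.11), with KO replicate 1 inside the WT range. Its levels of 7.35 to 7.87 lay around the array medians. The other 12 regulators had an unadjusted p of 0.05 or more in limma. The STAT5 genes, whose products activate Ccnd2, gave 0.08 (SE 0.07) for Stat5a and 0.21 (SE 0.09) for Stat5b. For both, all KO arrays were higher than all WT arrays, with the nearest arrays 0.03 apart. The forkhead genes, whose products activate Cdkn1b, gave 0.02 (SE 0.07) for Foxo1 and -0.08 (SE 0.07) for Foxo3. For Foxo3 all KO arrays were lower, with the nearest arrays 0.012 apart. The polycomb genes Bmi1 and Ezh2 gave 0.02 (SE 0.09) and -0.06 (SE 0.07). The signs for Foxo1 and Bmi1 turned when single arrays were left out.

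The probe sets whose levels followed Ccnd2 most closely over the 6 arrays were those of Mef2c, Lifr, Lgals4, Fyco1 and Hace1, each with a Pearson's r of 0.995 to 0.998. With the group means taken out they were Mef2c, Lgals4, Rbm17, Eps8 and Trim30d, at 0.993 to 0.998. These values describe likeness over 6 arrays that share their normalization, and so many probe sets were searched that values near 1 carry no test. Mef2c, a transcription factor of B cells, and Lgals4 were on both lists, and Mef2c had a difference of 0.33 (limma adjusted p = 0.330).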

How the data were processed

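RNA of 3 KO and 3 WT samples was measured on Affymetrix arrays. The authors' deposited values are log2 levels; the submitters' processing notes name RMA and Affymetrix Expression Console 1.1 (options and annotation not given in the sources used here). RMA usually equalises arrays and compresses changes of dim transcripts. Of 35556 rows, 21789 had exactly 1 gene symbol in the platform annotation, 1621 several and 12146 none; the first were tested. KO was compared with WT using limma 3.58.1 in R 4.3.3 (lmFit, eBayes, no covariate, all 6 arrays), which was also tested on simulated data. The Benjamini-Hochberg adjustment ran over all 21789 probe sets with a threshold of 0.05, and intervals are 95% moderated ones. P-values set the difference between the groups against the spread between these samples, which limma moderates with that of all probe sets. Each gene used its probe set with the highest mean.

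The members and lists were chosen with earlier results of these data known. Named genes are the members, Jup, defining markers, list genes with an unadjusted p under 0.05 and the extremes of each list by moderated t, with the 5 genes most like Ccnd2 by either measure. The regulators Stat5a, Stat5b, Foxo1, Foxo3, Bmi1 and Ezh2, and the marker Sparc, were named after their values were seen.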

Additional observations from a re-analysis of the deposited data

How the results depend on the processing

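The 10 members had an adjusted p of 0.05 or more in limma under all 14 settings tried for each (16 for Cdkn1b), so 0 passed under any of them. Of 142 member values under an alternative, 141 kept their sign, and Ccnd3 was at 0.0025 without KO replicate 1. Settings that changed only the probe sets tested, the prior or the block left each difference as it was. The sign could not turn there, so the count of 141 overstates stability. With each array left out in turn, Ccnd2 was 0.58 to 1.03, Cdkn1b 0.31 to 0.46, Cdkn2d 0.21 to 0.38, Rb1 0.12 to 0.23, Cdkn2a -0.37 to -0.21, Ccnd1 -0.22 to -0.026, Ccnd3 -0.12 to 0.0025, Cdk4 -0.11 to -0.030, Cdk6 -0.23 to -0.031 and Cdkn2c -0.13 to -0.044. The unadjusted p stayed under 0.05 in every setting for Ccnd2 and Cdkn1b, in 9 of 14 for Cdkn2d and in 10 of 14 for Cdkn2a. The smallest adjusted p values came with array weights, 0.0915 for Ccnd2 and 0.0689 for Cdkn1b. That setting gave the lowest weight, 0.336, to WT replicate 1, the WT array nearest to the KO mean for both genes. It gave the highest, 2.12, to WT replicate 2, the only array with low Xist. Members lower at an unadjusted p under 0.05 numbered 0 to 1 with an array left out, and members higher 2 to 4.

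Over all probe sets, 11 were higher and 15 lower. The counts were 17 higher with array medians made equal, 7 higher after a further quantile normalization, 59 lower over all rows (1641 higher at an unadjusted p), 17 and 23 with a trended and robust prior, 93 and 57 with array weights (1737 and 1936 at an unadjusted p), and 25 and 33 at an adjusted p of 0.1. Leaving out an array gave 1 to 41 higher and 3 to 41 lower, and at an unadjusted p 574 to 1616 higher and 546 to 1892 lower. The cause was not tested.

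With the replicate number as a block, 8 probe sets were higher and 11 lower, and 0 members passed. Deviations of same-numbered KO and WT arrays correlated at 0.104, -0.00431 and 0.275 across probe sets, and not every array correlated best with its own number. Since 1 of the 3 was not above 0.1, the samples were not taken as paired. With so few arrays this check cannot exclude a pairing. The sample descriptions also carry numbers shared by same-numbered KO and WT samples, whose meaning is not stated. The block changed the call of no member (Ccnd2 at an adjusted p of 0.209). Of 420 values for 30 other named genes, 5 turned sign, all with an array left out, for Cdk2 (-0.050 to 0.107), Foxo1 (-0.013 to 0.040) and Bmi1 (-0.024 to 0.092). As for the members, many of these values came from settings in which the sign could not turn. Sparc lost its call in 4 settings, the block included (limma adjusted p = 0.0525). Mpo, the only other of these 30 genes with a call, kept it. The other myeloid and erythroid markers that passed were not among the genes followed here.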
